A study of Mus musculus with 19 samples.

Results

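The chemokine gene family was examined as 33 named mouse genes, taken by symbol: the CXC genes Cxcl1, Cxcl2, Cxcl3, Cxcl5, Cxcl9 to Cxcl17, Ppbp and Pf4, the CC genes Ccl2 to Ccl9, Ccl11, Ccl17, Ccl19, Ccl20, Ccl22, Ccl24, Ccl25 and Ccl28, and Xcl1 and Cx3cl1. A probe was matched through its RefSeq accession for 32 of the 33 genes, and all 32 passed the detection filter, among 20189 tested genes in all. Cxcl11 was not analysed here. The arrays measured RNA from cultured fibroblasts of 7 organs of adult mice of 8 to 10 weeks, with 3 arrays each for tail, liver, heart and gonad, and 2 each for skin, lung and kidney. Minced tissue was digested with trypsin or collagenase and the cells that grew on plastic were cultured for 5 days in medium with 10% serum; no sorting step, strain, sex, genotype, treatment or agent is named, and all organs share this culture. The labels do not say whether replicates were separate animals or separate dishes, so the p-values below measure only the spread between these arrays. Lung replicate 2 has no scanner file here and enters only an alternative.

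Chemokines are small secreted proteins that steer leukocytes by binding G protein-coupled receptors. CXC chemokines with an ELR motif attract neutrophils through CXCR2, the interferon-inducible Cxcl9 and Cxcl10 attract activated T cells through CXCR3, and the CCR2 ligands recruit monocytes. Fibroblasts of many tissues are a known source of several family members, among them Cxcl12, which retains CXCR4-bearing cells, and the inducible Ccl2 and Cxcl1.

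Signals are given as log2 values relative to the 75th percentile of the array's non-control probes, so that 0 is that percentile; they compare the same probe between arrays, not different probes. On 5 arrays (gonad 3, heart 1, tail 2 and both kidney arrays) the negative control spots read 44.6 to 180 units, against 31.8 to 35.6 units on the other 13 arrays. On these 5 arrays 84.9% to 96.6% of probes were well above background, against 51.2% to 77.2% on the other 13. Both kidney arrays are among the 5. The summed signal of 10 fibroblast markers was 173 and 298 times the 75th percentile in the 2 kidney cultures, against 402 to 1974 times in the other 16 cultures. The summed signal of 8 epithelial markers was 89.8 and 108 times the percentile in kidney, against 0.61 to 73.2 times elsewhere. In kidney all 10 fibroblast markers were called lower, among 39.9% of all genes, and 7 of the 8 epithelial markers higher, among 35.7% of all genes. The scaled marker signal in kidney thus differed from the other cultures, but background, scaling and organ cannot be told apart there. The 75th percentile itself was 4235 and 2276 units on the kidney arrays and 2320 on heart 1, against 466 to 699 on all others. Heart 1, also of high background, had a fibroblast sum of 402 times, against 1966 and 1974 times in heart 2 and heart 3. Within kidney the fibroblast sum was above the epithelial sum, but sums over different probes do not rank cell types. Results were therefore also computed from the 13 other arrays, which leave 6 organs without kidney, and the members called there alone are named below.

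Chemokine signal differed among organs for 16 of the 32 tested genes (moderated F test in limma over 7 organ means, Benjamini-Hochberg over all genes, adjusted p under 0.05). Of all tested genes 36.9% passed the same test, so the family's share was above the share of all genes, without a test of that difference. On the 13 arrays, 24 of 32 passed, against 48.7% of all genes. By role, the genes that passed included 4 of the 6 neutrophil-attracting CXC genes, 1 of 2 tested CXCR3 ligands, 2 of 7 homeostatic or epithelial genes, 3 of 5 monocyte- and eosinophil-attracting CC genes, 1 of 3 ligands of CCR4 or CCR6, 1 of the 2 membrane-bound chemokines, and Pf4 of the remaining pair.

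**Figure D1:**
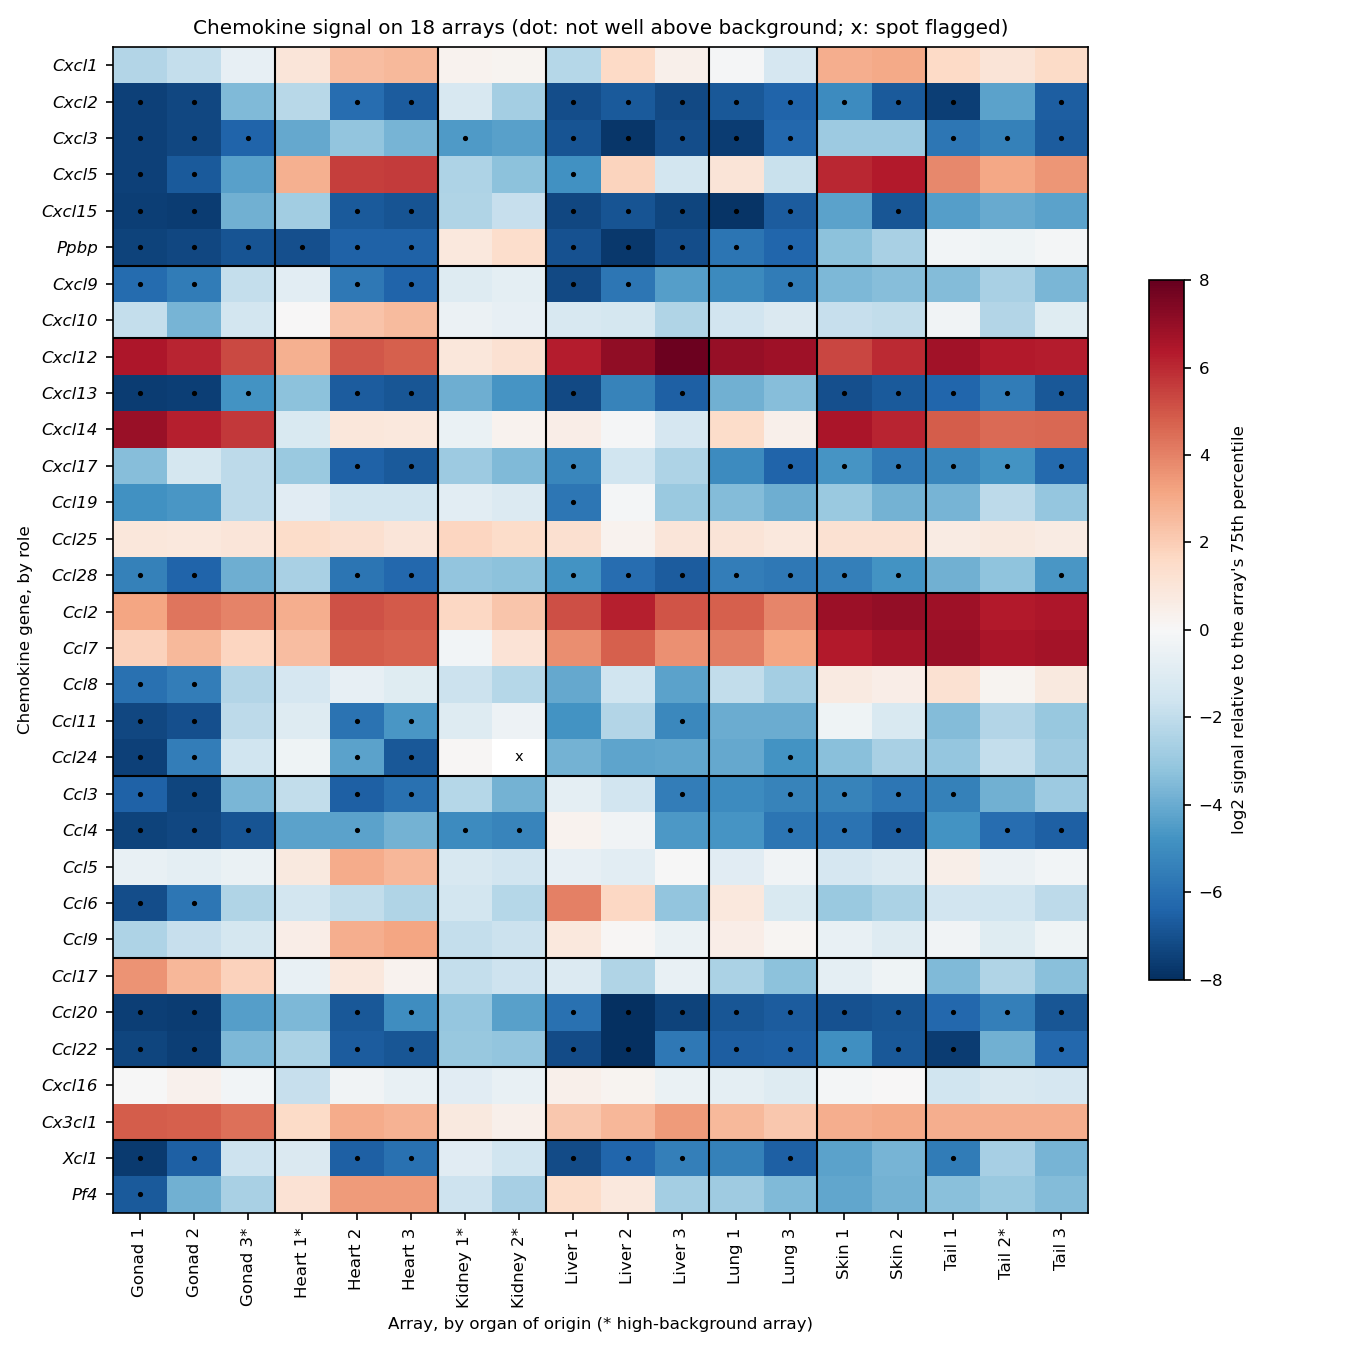
Log2 signal relative to each array's 75th percentile (colour) for 32 chemokine genes (rows, grouped by role) on 18 arrays (columns, by organ; an asterisk marks the 5 high-background arrays); a dot marks a spot not well above background and a cross a spot left out as an outlier. Ppbp stands out in kidney and tail, Ccl5, Ccl9, Cxcl10 and Pf4 in heart, Ccl17 and Cx3cl1 in gonad, while Cxcl2, Ccl20 and Ccl22 were well above background only on high-background arrays.

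Set against the mean of the other organs, the members called differed by organ (a call needs adjusted p under 0.05 and an absolute log2 difference of at least 1). In gonad cultures 3 members were higher, against 2.27% of all genes, and 6 lower, against 0.882% of all genes. In heart cultures 6 members were higher (1.48% of all genes) and 2 lower (2.46%). In liver cultures 2 members were higher (1.18% of all genes) and 3 lower (0.58%). The single call in lung was Ppbp, which was lower, where 0.476% of all genes were higher and 0.173% lower. The 6 members called in skin were all higher, where 0.901% of all genes were higher and 0.768% lower, and in tail 5 were higher (4.6% of all genes) and 1 lower (2.48%). In kidney 9 members were higher and 8 lower, but 35.7% and 39.9% of all genes were called there, so these counts are near the background and are not read as a result about chemokines. Over the 7 comparisons 52 calls fell on 23 genes. Every call kept its sign on each slide that held the organ, but the calls were chosen from these same arrays, so this adds no support. On the 13 arrays the counts of members called were 18 in gonad (22.2% of all genes in either direction), 10 in heart (8.41%), 4 in liver (5.62%), 4 in lung (2.04%), 13 in skin (25.0%) and 10 in tail (21.8%). The members called on those 13 alone were Cxcl17 (higher) and Ccl2, Ccl6, Ccl9, Ccl11, Ccl24, Cxcl10, Cxcl13 and Pf4 (lower) in gonad, Ccl17 (higher) and Cxcl12 (lower) in heart, and Cxcl13 (higher), Ccl17 and Cxcl14 (lower) in lung. In skin they were Ccl8, Ccl11, Cxcl1, Cxcl9 and Xcl1 (higher) and Ccl5 and Ccl9 (lower), and in tail Ccl28, Cxcl9 and Cxcl15 (higher) and Cxcl16 (lower). Among these 13 arrays, skin and tail had the highest median raw signals, 98 to 130.5 units, against 63 to 87 in the other organs. Over all genes 4327 were higher and 720 lower in skin, 3418 and 975 in tail, and 818 and 3657 in gonad. The part of background in the calls of dim members on the 13 arrays was not tested. Each of the 6 skin calls was lost when either skin array was left out, at adjusted p between 0.068 and 0.82, with the difference between 1.14 and 6.81; the lone array was then assumed to vary like the other organs, and calls over all genes in skin fell to 25 and 15, against 337.

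The neutrophil-attracting genes and Pf4 lie side by side on chromosome 5, in the order Cxcl5, Ppbp, Pf4, Cxcl3, Cxcl15, Cxcl1 and Cxcl2 in the RefSeq annotation. Neighbours within it had unlike organ patterns. Promoter windows (250 bases before to 50 after the annotated start, RefSeq, GRCm38.p6) were available for 23 of the 33 genes. They are shown for Cxcl1 and Cxcl3, which had their highest organ means in skin and heart, and for their cluster neighbours Ppbp and Pf4, which had theirs in kidney and in heart. Capitals mark matches on either strand to the kappa B motif of the factor NF-kappa B, searched as GGG, any 3 bases and TTCC. Cxcl1 is at chr5:90890995-90891294 (plus strand), Cxcl3 at chr5:90785851-90786150 (plus strand), Ppbp at chr5:90768268-90768567 (plus strand) and Pf4 at chr5:90772185-90772484 (plus strand).
Cxcl1: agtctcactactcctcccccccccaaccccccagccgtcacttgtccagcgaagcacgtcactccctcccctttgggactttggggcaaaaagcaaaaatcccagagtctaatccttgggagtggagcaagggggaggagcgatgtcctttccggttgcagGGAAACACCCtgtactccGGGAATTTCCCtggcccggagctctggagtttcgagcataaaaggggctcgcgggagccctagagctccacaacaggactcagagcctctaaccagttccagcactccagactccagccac
Cxcl3: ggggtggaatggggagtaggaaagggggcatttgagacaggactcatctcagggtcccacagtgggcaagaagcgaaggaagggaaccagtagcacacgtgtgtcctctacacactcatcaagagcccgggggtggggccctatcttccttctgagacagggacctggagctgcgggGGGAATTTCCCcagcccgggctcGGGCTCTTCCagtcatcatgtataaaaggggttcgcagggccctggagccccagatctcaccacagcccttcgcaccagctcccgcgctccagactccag
Ppbp: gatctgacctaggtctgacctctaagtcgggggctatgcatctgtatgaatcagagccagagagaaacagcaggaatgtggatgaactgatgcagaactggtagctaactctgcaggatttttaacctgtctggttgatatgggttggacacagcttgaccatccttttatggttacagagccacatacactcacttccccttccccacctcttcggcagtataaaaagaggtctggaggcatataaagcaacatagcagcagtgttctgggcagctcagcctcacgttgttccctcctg
Pf4: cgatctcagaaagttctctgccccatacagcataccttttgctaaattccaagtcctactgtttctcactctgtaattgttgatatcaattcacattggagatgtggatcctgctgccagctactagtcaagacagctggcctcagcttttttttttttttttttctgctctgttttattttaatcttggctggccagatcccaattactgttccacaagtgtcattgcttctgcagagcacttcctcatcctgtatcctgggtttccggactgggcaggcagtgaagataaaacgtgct
Cxcl1 and Cxcl3 each held the matches GGGAATTTCC and GGAATTTCCC, which overlap each other on opposite strands, starting at positions -71 and -70 of Cxcl1 and -73 and -72 of Cxcl3 relative to the annotated start. Cxcl1 held a further match GGAAACACCC and Cxcl3 a further GGGCTCTTCC. The windows of Ppbp and Pf4 held no match. The motif was found in 6 of the 23 members' windows (Cxcl1, Cxcl2, Cxcl3, Cxcl10, Ccl9 and Ccl20) and in 5.56% of 32851 RefSeq windows of the same length; a match is a description of letters, not of binding.

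Cxcl5, a CXCR2 ligand, had log2 signals of 6.05 and 6.35 in skin, 2.87, 5.52 and 5.61 in heart and 3.86, 3.12 and 3.52 in tail. In lung it had 1.05 and -1.79, in liver -4.82, 1.80 and -1.50, in kidney -2.49 and -3.27 and in gonad -7.48, -6.73 and -4.32. The skin arrays lay above all others, and gonad was well above background only on its high-background array. Cxcl5 was higher in skin by 6.66 ± 1.27 (SE) on the log2 scale (adjusted p = 0.0173) and in heart by 4.87 ± 1.07 (adjusted p = 0.0173), and lower in gonad by -7.78 ± 1.07 (adjusted p = 0.00103), a difference measured with 2 of 3 gonad arrays below the level of well-measured spots. The heart call was lost without heart 2 or heart 3 (adjusted p = 0.12 and 0.13), and the gonad call in no alternative. In the order of organ means, no neighbours differed beyond their spread (adjusted p 0.068 to 1).

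Cxcl3, a further CXCR2 ligand, was at -2.93 and -2.90 in skin, -4.07, -3.19 and -3.72 in heart and -4.56 and -4.32 in kidney. It was at -5.81, -5.38 and -6.66 in tail, -7.57 and -6.28 in lung, -7.45, -7.27 and -6.38 in gonad and -6.93, -7.76 and -7.08 in liver, none of them well above background. The skin arrays were above all others. Where an organ is dim on all its arrays, folds are given as bounds, with the dim side set no lower than the lowest well-measured signal of its array. Cxcl3 was at least 3.42-fold higher in skin (adjusted p = 0.00332) and at least 1.87-fold higher in heart (adjusted p = 0.00301). With quantile normalization these calls were lost (adjusted p = 0.16 in skin and 0.25 in heart). They were also lost after background correction by normexp, with log2 differences of 0.94 in skin and 0.67 in heart. The heart call was lost from the raw value table as well (0.76). It was also called lower in gonad, where both sides were too dim for a fold, and at least 1.04-fold lower in liver. Those calls were lost without gonad 1 or gonad 2 (adjusted p = 0.12 and 0.1) and without liver 2 (0.073). Both were also lost with quantile normalization (log2 difference -0.66 in gonad and -0.44 in liver) and with normexp (-0.23 and -0.53). The raw value table ended both as well (-0.27 and -0.81).

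Ppbp encodes the precursor of CXCL7, best known from platelets. It was at 0.85 and 1.38 in kidney, -0.20, -0.35 and -0.14 in tail and -3.25 and -2.58 in skin. In gonad it was at -7.43, -7.29 and -6.93, in heart at -7.05, -6.45 and -6.45, in liver at -6.96, -7.73 and -7.08 and in lung at -5.86 and -6.33. The 3 upper organs did not overlap with each other or with the rest, and the other 4 organs were not well above background on any array, the high-background arrays gonad 3 and heart 1 included. Ppbp had the smallest F test p of the family (adjusted p = 6.97e-08). It was at least 30.8-fold higher in kidney (adjusted p = 3.58e-07), where 35.7% of all genes were called higher, and at least 10.4-fold higher in tail (adjusted p = 8.82e-07). In skin it was at least 1.18-fold higher (adjusted p = 0.0244). That call was lost without lung 3 (log2 difference 1.43) and, with the sign turned, after background correction by normexp (-0.37, adjusted p = 0.40). Quantile normalization (0.14, adjusted p = 0.95), the raw value table (0.03) and slide or replicate blocks (adjusted p = 0.062 and 0.064) also ended it. Kidney exceeded tail by 1.34 (adjusted p = 0.011) and tail exceeded skin by 2.69 (adjusted p = 0.0016). It was at least 2.66-fold lower in gonad, at least 1.82-fold lower in heart, at least 2.93-fold lower in liver and at least 2.07-fold lower in lung, of which the lung call was lost without lung 1 or lung 3 (adjusted p = 0.079 and 0.31). The tail call was kept on the 13 arrays (adjusted p = 4.61e-06). The summed signal of 5 platelet markers (Itga2b, Gp9, Gp1ba, Gp5 and Treml1) was 2.48 and 3.59 times the percentile in kidney, 0.69 to 1.39 times in tail and 0.46 to 0.66 times in skin, against 0.16 to 3.12 times in the other 4 organs, and its part in the result was not tested.

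Cxcl1, which attracts neutrophils, was at 2.92 and 3.02 in skin, 0.97 to 2.59 in heart, 1.05 to 1.61 in tail, 0.20 and 0.31 in kidney, -2.30 to 1.59 in liver, -1.36 and -0.12 in lung and -2.32 to -0.66 in gonad. Its order of organs, skin, heart and tail first and gonad last, was shared with Cxcl5. It was lower in gonad by -2.60 ± 0.63 (adjusted p = 0.0394), a call lost without any of 13 single arrays, gonad 1 (adjusted p = 0.32) and gonad 2 (0.24) among them. Cxcl2 and Cxcl15, known in mouse as lungkine, were above -5.01 and -4.29 only on the 5 high-background arrays, at -4.28 to -1.30 and -4.00 to -1.87. Cxcl15 was higher in tail on the 13 arrays (adjusted p = 0.00802), where tail 1 and tail 3 were at -4.38 and -4.30.

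**Figure D2:**
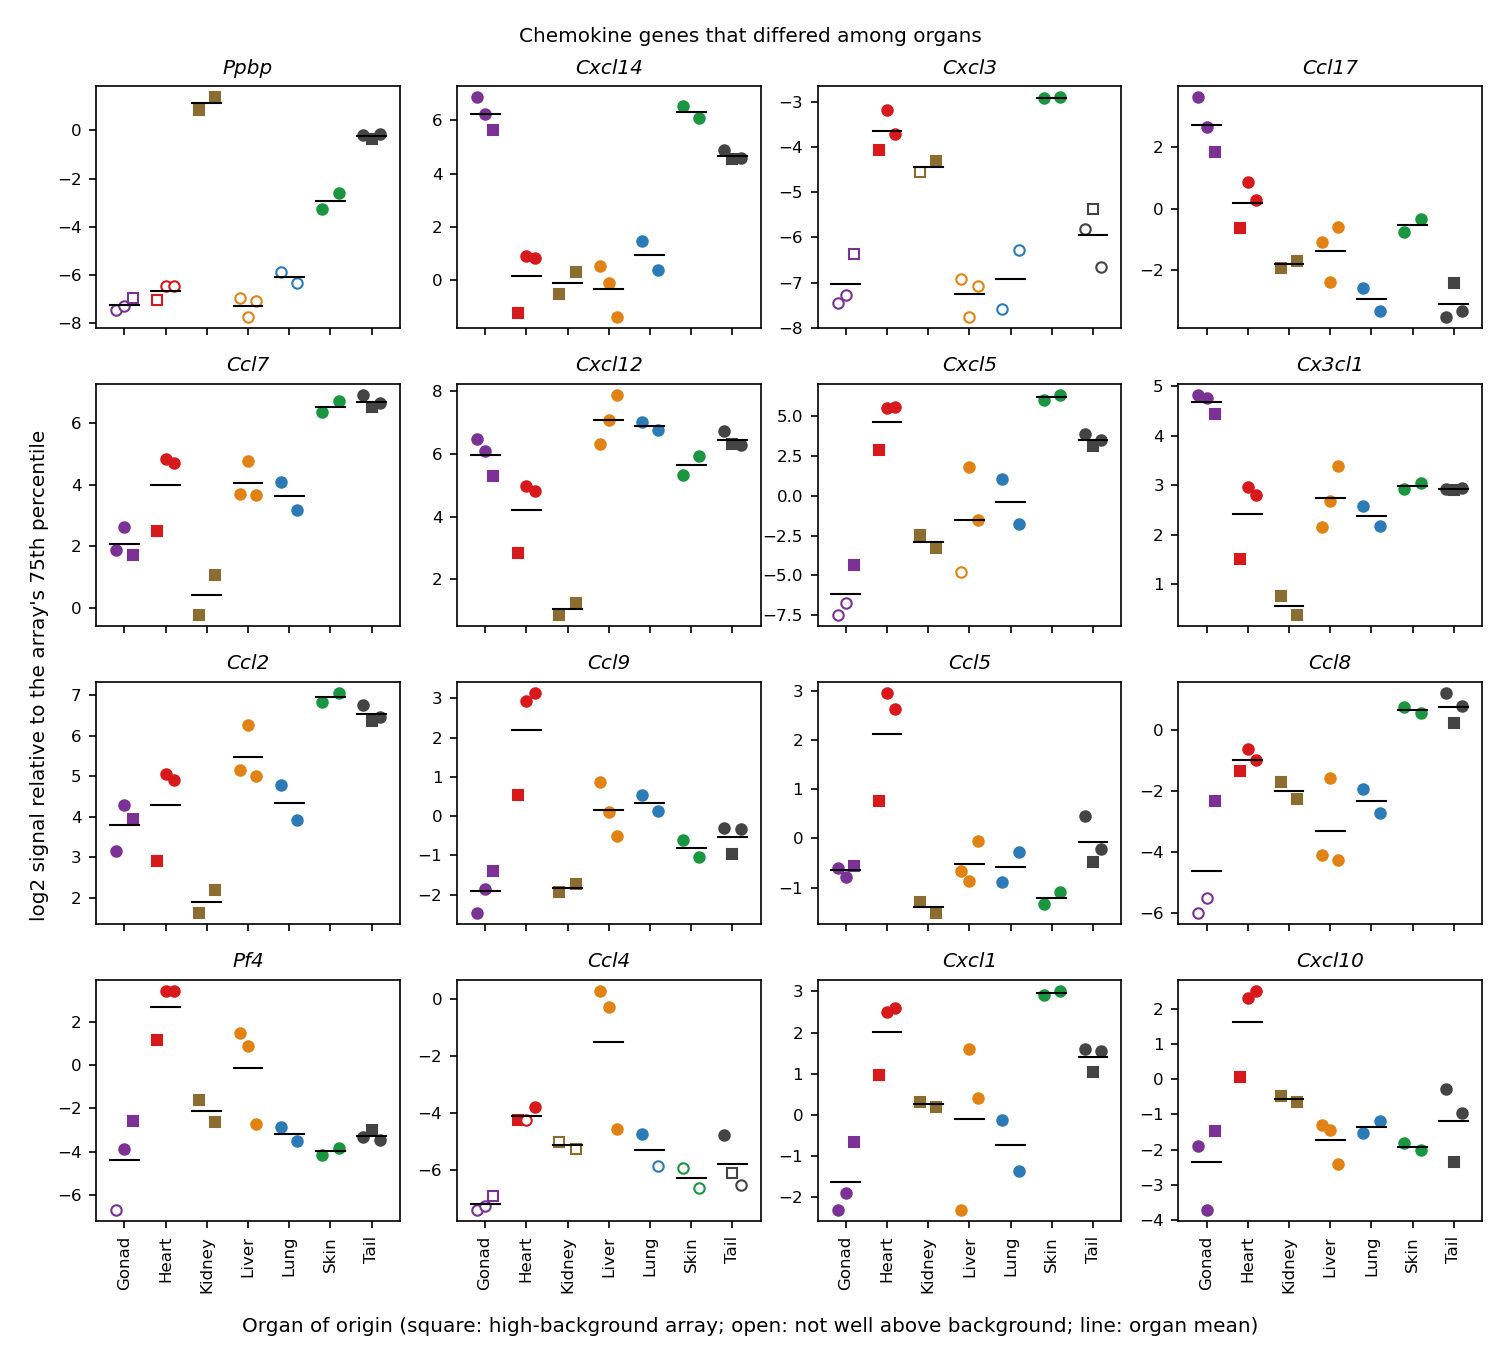
Log2 signal relative to the array's 75th percentile (vertical axis) by organ for the 16 chemokine genes that passed the F test, in order of its p; squares are high-background arrays, open symbols are not well above background and lines are organ means. Ppbp falls into kidney, tail, skin and a floor of 4 organs, while Ccl5, Ccl9 and Cxcl10 are highest in heart, including its high-background array for Ccl5 and Cxcl10.

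Cxcl10, the interferon-inducible CXCR3 ligand, was at 0.06, 2.29 and 2.52 in heart, against -3.72 to -0.28 in the other organs. All 3 heart arrays were above all others. The difference was 3.14 ± 0.56 (adjusted p = 0.00476), with 2.19 over kidney, the next organ (adjusted p = 0.064), and the call was lost without heart 2 or heart 3 (adjusted p = 0.05 and 0.052). Cxcl9, a further CXCR3 ligand, did not pass and was at -2.60 to -0.80 on the 5 high-background arrays, against -7.24 to -3.38 on the other 13; its other probe was well above background on a single tail array. On the 13 arrays it passed the F test (adjusted p = 0.0337) and was higher in skin (adjusted p = 0.0315) and tail (adjusted p = 0.0417). The promoter window of Cxcl10 (chr5:92348840-92349139, minus strand, GRCm38.p6, RefSeq) is shown because it holds matches to 2 of the 3 motifs searched, the TATA box (TATAAA) being the other, found in 9 members' windows and 13.6% of all windows; capitals mark kappa B matches and a match on either strand to the interferon-stimulated response element, searched as TTTC, any 2 bases and TTTC.
Cxcl10: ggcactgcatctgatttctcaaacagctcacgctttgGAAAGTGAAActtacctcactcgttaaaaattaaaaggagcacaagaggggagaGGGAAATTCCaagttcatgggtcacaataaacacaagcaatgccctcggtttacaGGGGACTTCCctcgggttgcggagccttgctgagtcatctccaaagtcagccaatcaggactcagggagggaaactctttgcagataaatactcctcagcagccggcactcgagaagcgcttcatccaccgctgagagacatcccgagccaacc
The element's match GAAAGTGAAA starts at position -213 relative to the annotated start and the kappa B matches GGGAAATTCC and GGGGACTTCC at -159 and -104. The element was found in 3 members' windows (Cxcl10, Cxcl14 and Ccl19) and in 3.44% of all windows.

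Ccl5, which attracts T cells and monocytes, was at 0.76, 2.97 and 2.63 in heart. It was at 0.46, -0.47 and -0.20 in tail, -0.66, -0.87 and -0.05 in liver, -0.89 and -0.27 in lung, -0.60, -0.78 and -0.55 in gonad, -1.33 and -1.10 in skin and -1.29 and -1.51 in kidney. The heart arrays lay above all others. Ccl5 was higher in heart by 2.86 ± 0.38 (adjusted p = 5.96e-04), and heart exceeded tail, the next organ, by 2.19 (adjusted p = 0.017). Ccl9, a mouse CCR1 ligand that neighbours Ccl5, was at 0.53, 2.92 and 3.15 in heart, 0.54 and 0.13 in lung, 0.87, 0.11 and -0.52 in liver and -0.31, -0.96 and -0.32 in tail. It was at -0.61 and -1.03 in skin, -1.93 and -1.74 in kidney and -2.46, -1.86 and -1.41 in gonad. Heart 1, a high-background array, overlapped with liver and lung while heart 2 and heart 3 were above all others. Ccl9 was higher in heart by 2.97 ± 0.46 (adjusted p = 0.00178), a call kept in every alternative, as was that of Ccl5, but heart did not differ from lung, the next organ, beyond the spread (1.86, adjusted p = 0.24).

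Interferon-stimulated genes, a list of 18 with 17 measured and no chemokine among them, were also high in heart. There 16 of the 17 were higher, against 1.48% of all genes, with a median difference of 4.13 against -0.09 over all genes. In tail 12 of the 17 were higher, against 4.6% of all genes, with a median difference of 1.75 against 0.33. The antiviral Oas2 (6.85 ± 0.63) and Oas1a (5.91 ± 0.65) and the ISG15 protease Usp18 (5.22 ± 0.47) had the largest differences in heart. The summed signal of the list was 158, 715 and 632 times the percentile in heart and 66.0 to 167 times in tail, against 11.3 to 32.3 times in the other organs. Outside heart, tail 1 had the highest Ccl5 (0.46) and the highest Cxcl10 (-0.28), but neither gene was called in tail. Whether the chemokines and these genes were moved by a shared cause was not tested.

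**Figure D3:**
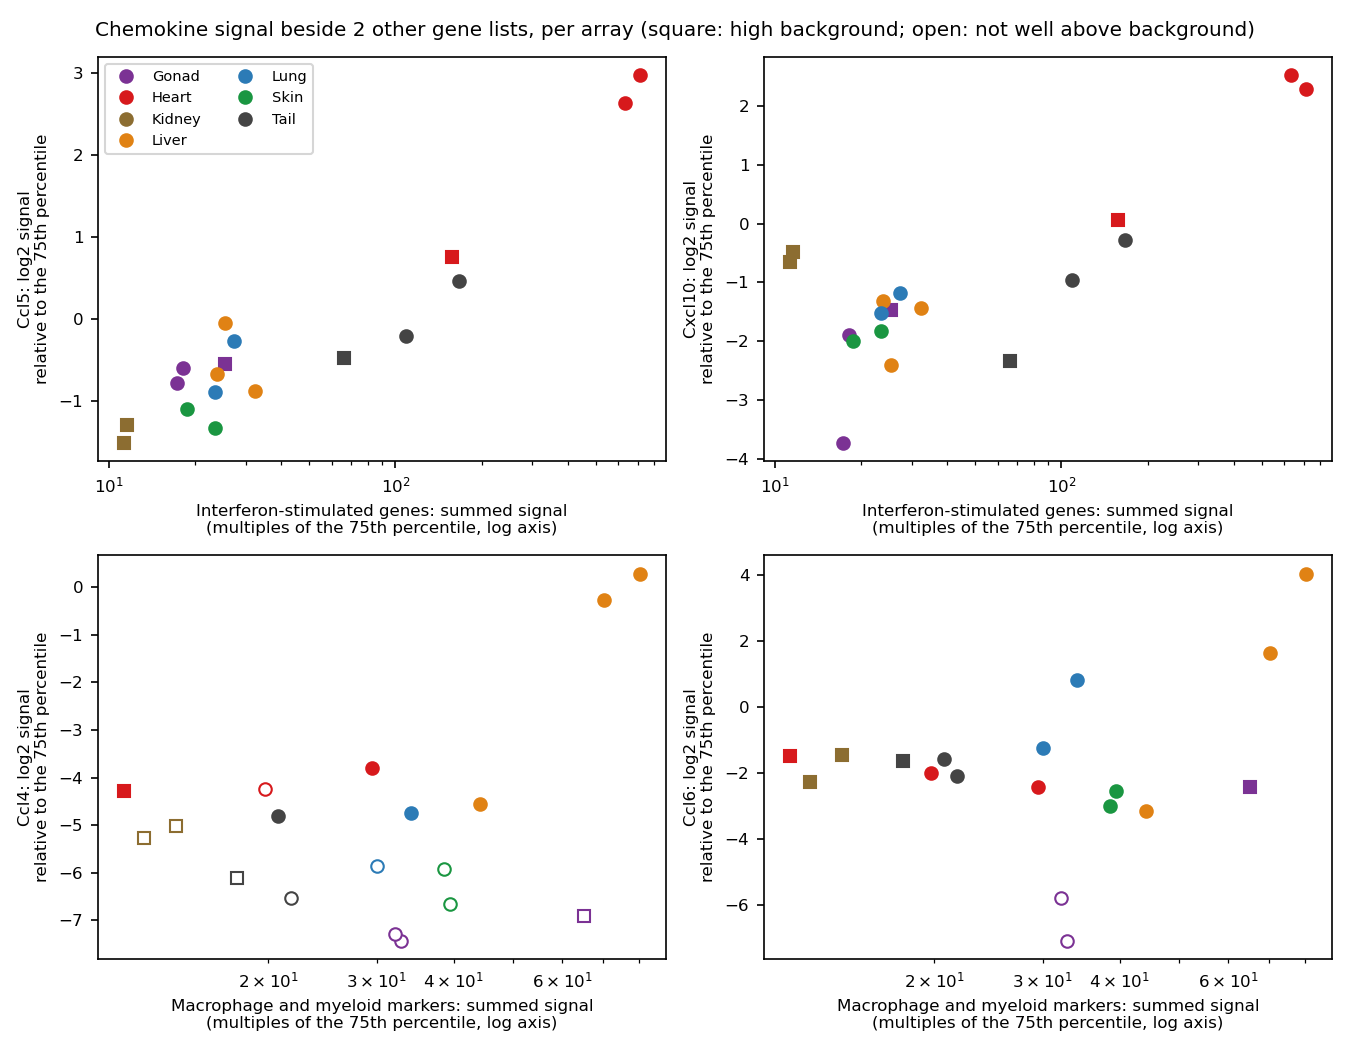
Log2 signal of Ccl5, Cxcl10, Ccl4 and Ccl6 (vertical axes) against the summed signal of 17 interferon-stimulated genes (upper plots) or 14 macrophage markers (lower plots), in multiples of the 75th percentile on a log axis, 1 point per array coloured by organ. Heart arrays lie at 158 to 715 times with the highest Ccl5 and Cxcl10, and liver 1 and liver 2 lie at 80.3 and 70.2 times with the highest Ccl4 and Ccl6.

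Cxcl12, the CXCR4 ligand of stromal cells, was at 6.30, 7.08 and 7.87 in liver, 6.99 and 6.75 in lung and 6.72, 6.32 and 6.26 in tail. It was at 6.48, 6.07 and 5.28 in gonad, 5.33 and 5.94 in skin, 2.83, 4.96 and 4.80 in heart and 0.88 and 1.24 in kidney. Kidney lay below all other arrays, heart below liver, lung, tail, gonad and skin, and the first 5 organs overlapped or adjoined. Cxcl12 was lower in kidney by -4.97 ± 0.51 (adjusted p = 2.07e-04), where 39.9% of all genes were called lower. The liver call of 2.06 ± 0.43 (adjusted p = 0.0274) was lost on the 13 arrays (1.05 ± 0.30, adjusted p = 0.0635), as well as without kidney 1, liver 2, liver 3, lung 3, skin 1 or tail 3 (adjusted p = 0.053, 0.13, 0.19, 0.054, 0.057 and 0.051). It was also lost with the slide as a block (adjusted p = 0.057), with the replicate number as a block (0.054) and with the mean of probes (0.05). A second probe, on another Cxcl12 transcript, was also lowest in kidney (-0.84 ± 0.02, SD, n = 2) and highest in lung (6.89 ± 0.22, SD, n = 2).

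Cxcl14, a chemokine of skin and other epithelia, split the organs into high and low. It was at 6.55 and 6.08 in skin, 6.88, 6.25 and 5.65 in gonad and 4.87, 4.55 and 4.60 in tail. It was at 1.49 and 0.39 in lung, -1.22, 0.92 and 0.82 in heart, -0.50 and 0.29 in kidney and 0.54, -0.12 and -1.37 in liver. The lowest array of the first 3 organs was at 4.55 and the highest of the last 4 at 1.49. Tail exceeded lung, the next organ, by 3.73 (adjusted p = 0.0078), while skin, gonad and tail did not differ from their neighbours (adjusted p = 0.98 and 0.22). Against the other organs it was higher in skin (4.38 ± 0.57, adjusted p = 0.00219), gonad (4.31 ± 0.48, adjusted p = 2.00e-04) and tail (2.46 ± 0.48, adjusted p = 0.00565), and lower in liver (-3.36 ± 0.48, adjusted p = 0.00277) and heart (-2.79 ± 0.48, adjusted p = 0.00352). The tail call was lost without tail 1 (adjusted p = 0.051), the gonad, liver and heart calls in no alternative. Of 8 epithelial markers 1, the basal keratin Krt14, was called higher in skin (5.63 ± 0.78, adjusted p = 0.00291), where 0.901% of all genes were higher. On the 13 arrays 5 were, where 4327 of 20196 genes were higher. Krt8 (-0.39) and Krt18 (-1.05) did not pass in skin over 18 arrays (adjusted p = 0.89 and 0.646). The epithelial sum in skin was 15.0 and 16.4 times the percentile, against 0.61 to 108 times in all other organs.

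Of the other homeostatic members, Ccl25, a thymic and gut chemokine, ranged only from 0.28 to 1.69 on its brightest probe and did not pass. A dimmer Ccl25 probe, on another transcript, was well above background on all 18 arrays. Its organ means ran from -3.60 ± 0.36 (SD, n = 2) in lung to 0.31 ± 0.34 (SD, n = 2) in kidney, both of whose arrays have high background. Ccl19, a CCR7 ligand, ranged from -5.75 to -0.19, with liver alone covering -5.75, -0.19 and -2.98. Cxcl13, which attracts B cells, was well above background on both lung arrays, at -3.83 and -3.38, against -7.59 to -3.27 elsewhere. On the 13 arrays it was higher in lung by 3.21 ± 0.38 (adjusted p = 0.00435); on all 18 the difference was 2.39 (adjusted p = 0.36). The sum of 6 mesothelial markers was 31.3 and 69.4 times the percentile in lung, against 0.99 to 92.8 times elsewhere. Cxcl17, a mucosal chemokine, was at -3.38, -1.41 and -2.08 in gonad and at -5.19, -1.58 and -2.45 in liver, and did not pass (adjusted p = 0.0723). It passed on the 13 arrays (adjusted p = 0.0434) and was higher in gonad by 2.86 ± 0.86 (adjusted p = 0.0357). Ccl28, of mucosal epithelia, was at -6.64 to -2.57.

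Ccl2 and Ccl7, neighbouring genes on chromosome 11 whose products attract monocytes through CCR2, were highest in skin and tail. Ccl7 was at 6.90, 6.51 and 6.64 in tail, 6.35 and 6.69 in skin, 3.71, 4.75 and 3.67 in liver and 2.49, 4.83 and 4.69 in heart. It was at 4.07 and 3.17 in lung, 1.87, 2.62 and 1.71 in gonad and -0.21 and 1.07 in kidney. Tail and skin overlapped and lay above every other array. Ccl7 was higher in tail by 3.24 ± 0.46 (adjusted p = 6.03e-04) and in skin by 3.04 ± 0.54 (adjusted p = 0.0136), and lower in gonad by -2.15 ± 0.46 (adjusted p = 0.0198); the gonad call was lost without gonad 1 or gonad 2 (adjusted p = 0.16 and 0.06). Ccl2 was at 6.82 and 7.05 in skin, 6.76, 6.35 and 6.45 in tail, 5.15, 6.25 and 5.00 in liver and 4.77 and 3.93 in lung. It was at 2.91, 5.07 and 4.90 in heart, 3.15, 4.29 and 3.95 in gonad and 1.64 and 2.19 in kidney. Skin and tail were again above all other arrays. Ccl2 was higher in skin by 2.55 ± 0.51 (adjusted p = 0.0217) and in tail by 2.06 ± 0.43 (adjusted p = 0.00874), the tail call being lost without tail 1 or tail 3 (adjusted p = 0.077 and 0.052).

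Ccl8, which lies near them and is in mouse a CCR8 ligand, was at 1.23, 0.23 and 0.80 in tail, 0.75 and 0.56 in skin, -1.35, -0.63 and -0.97 in heart and -1.70 and -2.27 in kidney. It was at -1.95 and -2.72 in lung, -4.09, -1.57 and -4.27 in liver and -5.99, -5.52 and -2.34 in gonad. Tail and skin were the only organs above 0. Ccl8 was higher in tail by 2.85 ± 0.66 (adjusted p = 0.0174) and lower in gonad by -3.42 ± 0.66 (adjusted p = 0.0112). Only 1 of the 3 gonad arrays, the high-background gonad 3, read it well above background. The tail call was lost without tail 1, tail 2 or tail 3 (adjusted p = 0.13, 0.052 and 0.098) and the gonad call without gonad 1 or gonad 2 (adjusted p = 0.14 and 0.12). Ccl11 and Ccl24, the eotaxins that act on CCR3, did not pass over 18 arrays (adjusted p = 0.104 and 0.382). On the 13 arrays Ccl11 was higher in skin (3.95 ± 0.64, adjusted p = 0.00264) and lower in gonad (adjusted p = 0.00365), where neither array was well above background. Ccl24 read -1.91 to 0.08 on the 4 high-background arrays that measured it, against -7.49 to -2.61 on the other 13, and kidney 2 is missing from its fit as an outlier spot. Ccl24 passed the F test on the 13 arrays (adjusted p = 0.0247) and was lower in gonad (adjusted p = 0.0164), where neither array was well above background.

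Ccl3, Ccl4 and Ccl6, which attract leukocytes and neighbour each other, were high on liver 1 and liver 2 and low on liver 3. Ccl4 was at 0.29, -0.28 and -4.56 in liver, against -7.43 to -3.80 in the other organs. Ccl6 was at 4.05, 1.64 and -3.14 in liver, against -7.07 to 0.82 elsewhere, and Ccl3 at -0.76, -1.56 and -5.52 in liver, against -7.34 to -1.97 elsewhere. Liver 1 and liver 2 were thus above all arrays of other organs for all 3 genes, and liver 3 was within their range. Ccl4 was at least 10.7-fold higher in liver (adjusted p = 0.0102), a call lost without liver 1 or liver 2 (adjusted p = 0.097 and 0.1), and liver did not differ from heart, the next organ, beyond the spread (adjusted p = 0.2). Ccl6 and Ccl3 did not pass the F test (adjusted p = 0.0766 and 0.3). The summed signal of macrophage markers split the liver arrays in the same way, at 80.3, 70.2 and 44.1 times the percentile, against 11.7 to 65.0 times elsewhere. Not every marker did so. Itgam, the largest single term of the sum in liver, was at 4.39, 4.78 and 5.15. Cd163 was not well above background on any liver array. Of 14 measured markers 4 were higher in liver (C1qa, C1qc, Fcer1g and Mrc1), where 1.18% of all genes were higher, with a median difference of 2.44 against 0.01 over all genes. There were 9 higher on the 13 arrays, where 5.62% of all genes were called in either direction. The mannose receptor Mrc1 was at -0.21, 0.13 and -5.31 in liver and the complement gene C1qc at 2.78, 2.38 and -1.27. In such bulk samples more cells of a type and more RNA per cell cannot be told apart, and the part of these markers in the chemokine values was not tested.

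Pf4, platelet factor 4, which macrophages also express, was at 1.13, 3.43 and 3.41 in heart and 1.46, 0.86 and -2.71 in liver, against -6.70 to -1.63 in the other 5 organs. Heart was above all organs but for heart 1, which lay below liver 1. Pf4 was higher in heart by 5.51 ± 0.86 (adjusted p = 0.00173), a call kept in every alternative that tested it, with 2.79 over liver, the next organ (adjusted p = 0.25). The macrophage sum was 11.7, 19.8 and 29.5 times the percentile in heart, against 12.6 to 80.3 times elsewhere. Its largest single term in heart was Itgam, at 1.87, 3.92 and 4.64. Of the 14 markers, 8 were detected on all heart arrays and Mrc1 on none. The platelet sum in heart was 3.12 times on the high-background array and 0.33 and 0.18 times on heart 2 and heart 3. The sum of 8 lymphocyte markers was at most 5.11 times the percentile on any array. Xcl1, a lymphocyte chemokine, read -2.65 to -0.91 on the 5 high-background arrays, against -7.65 to -3.69 on the other 13. On those 13 it passed the F test (adjusted p = 0.0425) and was higher in skin (adjusted p = 0.0217), at -4.28 and -3.69. Over all genes 4327 of 20196 were higher in skin there.

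Ccl17, a CCR4 ligand that attracts Th2 and regulatory T cells, was at 3.61, 2.65 and 1.82 in gonad, -0.62, 0.86 and 0.28 in heart and -0.76 and -0.32 in skin. It was at -1.10, -2.39 and -0.59 in liver, -1.91 and -1.68 in kidney, -2.56 and -3.30 in lung and -3.50, -2.41 and -3.32 in tail. All gonad arrays lay above all others, and gonad exceeded heart, the next organ, by 2.52 (adjusted p = 0.02). Ccl17 was higher in gonad by 4.28 ± 0.44 (adjusted p = 1.42e-04) and lower in tail by -2.45 ± 0.44 (adjusted p = 0.00334), and both calls were kept in every alternative. Ccl22, the other CCR4 ligand, and Ccl20, the CCR6 ligand, were well above background only on high-background arrays, 5 and 4 of them.

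Cx3cl1, the membrane-tethered fractalkine, is adjacent to Ccl17 on chromosome 8, with Ccl22 on its other side. It was at 4.82, 4.76 and 4.43 in gonad, 2.92 and 3.05 in skin, 2.92, 2.90 and 2.93 in tail and 2.15, 2.68 and 3.38 in liver. It was at 1.51, 2.97 and 2.80 in heart, 2.58 and 2.18 in lung and 0.75 and 0.38 in kidney. Gonad lay above and kidney below all other arrays, while skin, tail, liver, heart and lung overlapped. In kidney 39.9% of all genes were called lower. Cx3cl1 was higher in gonad by 2.34 ± 0.31 (adjusted p = 8.26e-04), a call kept in every alternative, with 1.69 over skin, the next organ (adjusted p = 0.072). Endothelial cells are a known source of fractalkine, and the summed signal of 8 endothelial markers was 9.63 to 24.9 times the percentile in gonad, against 13.5 to 38.5 times in liver and 3.29 to 6.13 times in the other 5 organs; its part in the result was not tested. Cxcl16, the other membrane-bound chemokine, ranged from -1.85 to 0.39 (adjusted p = 0.0518), and on the 13 arrays was lower in tail by -1.24 ± 0.23 (adjusted p = 0.00497).

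**Figure D4:**
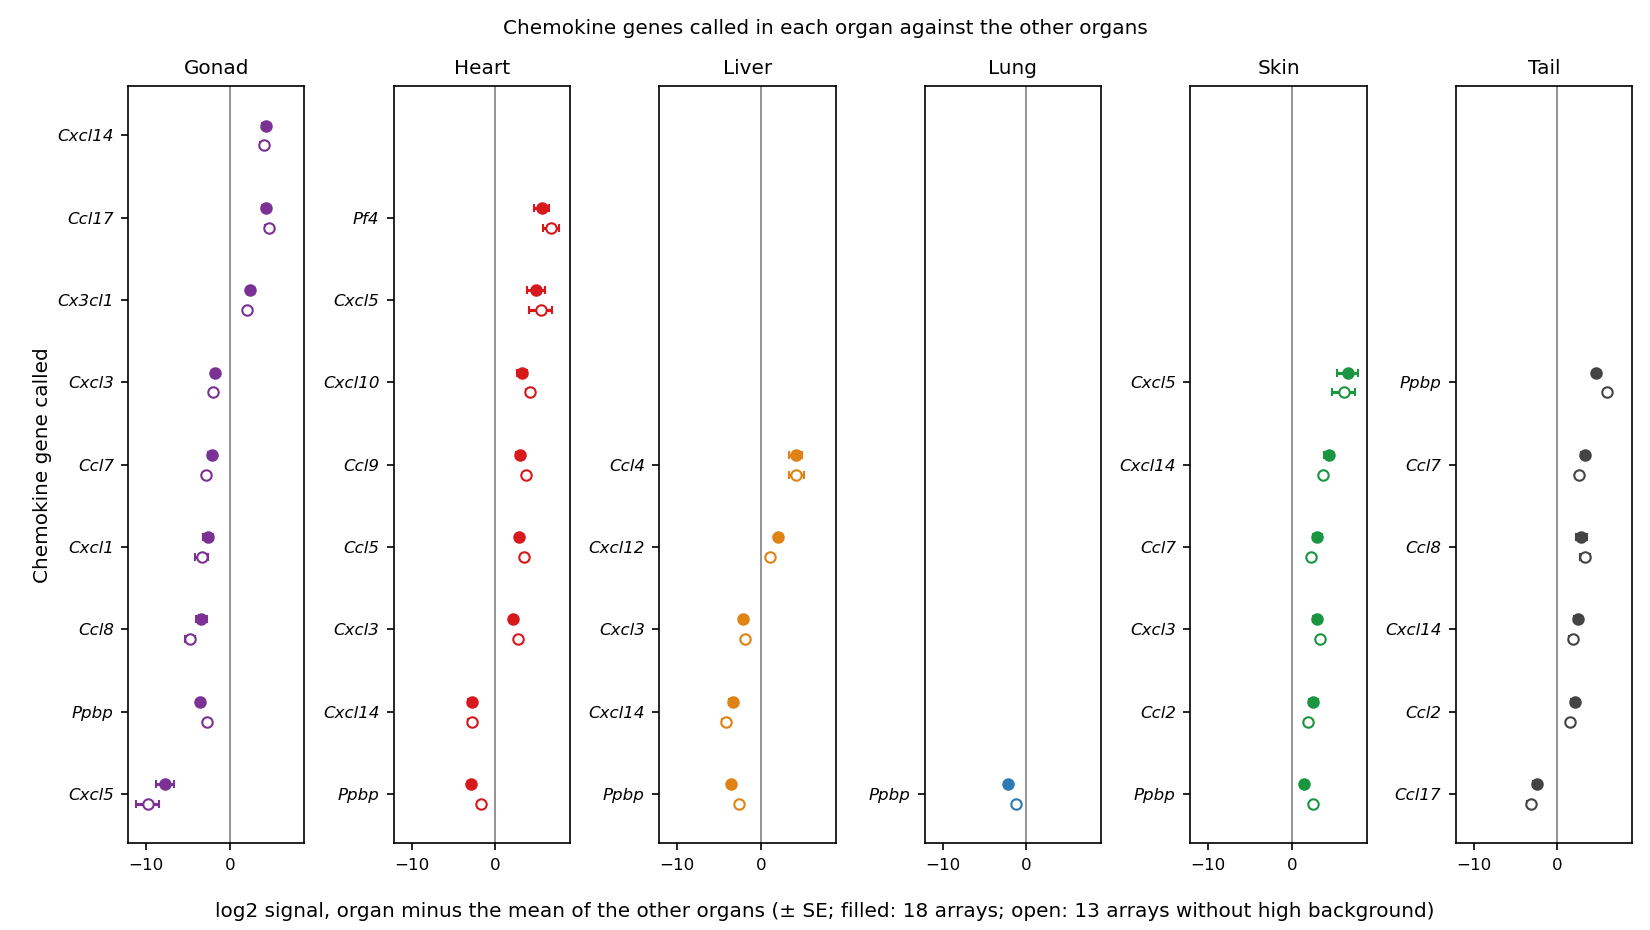
Log2 signal of each organ minus the mean of the other organs (horizontal axis, ± SE) for the chemokine genes called in 6 organs over 18 arrays; filled points are from 18 arrays and open points from the 13 arrays without high background. All points lie on the same side of 0 in both fits, with Cxcl5 in gonad, where 2 of 3 arrays were not well above background, farthest from 0.

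Receptor genes and targets of NF-kappa B, the factor that drives many inducible chemokines, were read on the same arrays. Of 18 chemokine receptor genes, Ccr7, the receptor of Ccl19, was at least 8.25-fold higher in tail (adjusted p = 1.44e-05) and at least 1.24-fold lower in gonad (adjusted p = 0.0018). It was also called lower in skin (adjusted p = 0.0383), with no fold given, since it was not well above background on any gonad, heart, lung or skin array. In kidney 15 of the 18 receptors were called higher, among 35.7% of all genes. By the F test 2 of the 18 passed (Ccr7 and Cxcr1), against 36.9% of all genes. On the 5 high-background arrays 15 to 18 receptors were well above background, against 3 to 14 on the other 13. The part of background in the kidney calls was not tested. Of 5 atypical receptors, the Cxcl12 scavenger Ackr3 was higher in tail (3.13 ± 0.51, adjusted p = 0.00169) and lower in heart (-3.16 ± 0.51, adjusted p = 0.00227), and Ackr4 was higher in gonad (2.32 ± 0.50, adjusted p = 0.0198). Of 18 NF-kappa B targets, the acute phase gene Saa3 was higher in skin (5.34 ± 1.08, adjusted p = 0.0239), where 0.901% of all genes were higher. In tail Il6, Nfkbiz, Saa3 and Tnfaip3 were lower and Vcam1 was higher, where 2.48% of all genes were lower and 4.6% higher. Tnfaip6 was higher and Ptgs2 lower in heart, Vcam1 lower in gonad and Lcn2 lower in lung. Among the kidney calls 7 targets were higher and 4 lower (35.7% and 39.9% of all genes). On the 13 arrays 7 were higher and 1 lower in skin (4327 and 720 over all genes). For tail these counts were 1 and 5 (3418 and 975). The part of NF-kappa B in the chemokine values was not tested. The cytokine Il6 was at -0.84, -1.67 and -0.98 in tail, against 1.14 to 4.45 in all other organs.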

How the data were processed

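RNA from 19 fibroblast cultures was labelled with Cy3 and hybridised to 1-colour Agilent arrays. The authors deposited scanner output from Agilent Feature Extraction 11.0.1.1, per the file headers, for 18 of them: the intensity of each spot, background-subtracted by that software. The series value table, also deposited, holds the raw median intensity of all 19 samples, as found by setting it against the scanner values. The array design names mm9; gene names come from the RefSeq table of GRCm38.p6 through probe accessions (27235 of 55681 probes).

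Each intensity was scaled to the 75th percentile of its array's non-control probes and taken as log2. Spots flagged as outliers were left out; no spot was saturated. The brightest probe of each gene was kept if 2 or more arrays read it well above background. Tests were run in limma 3.58.1 (R 4.3.3) on 7 organ means with 11 residual degrees of freedom, over 20189 genes with Benjamini-Hochberg adjustment: the F test, each organ against the unweighted mean of the others, and 21 pairs. The fit was tested on simulated data. Alternatives covered normalization, background, filters, probes, slide (3 slides) and replicate blocks, the value table, the 5 high-background arrays and single arrays.

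The members, the other gene lists and the rule for naming genes were chosen with earlier results of these data known. Values by array are given for the 12 members with the smallest F test p, and for Pf4, Ccl3, Ccl4, Ccl6, Cxcl10 and others after their values were seen. Array data carry no read depth, so the number of arrays limits the precision.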

Additional observations from a re-analysis of the deposited data

How the results depend on the processing

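The 52 calls are limited by 2 or 3 arrays an organ and by the 5 high-background arrays. On the 13 others the members called came to 18 in gonad, 4 in lung, 13 in skin, 10 in tail, 10 in heart and 24 by the F test, against 9, 1, 6, 6, 8 and 16 on all 18; with high background as a term they came to 15 in gonad, 6 in kidney (17 on all 18 without the term) and 4 in lung. With probes well above background on all arrays, fewer genes were tested and 4 were called in heart, 7 in kidney and 2 in liver (5 otherwise). In lung 3 were called with normexp and 5 from the value table. Leaving out single arrays gave 5 to 13 in gonad, 6 to 9 in heart, 6 to 21 in kidney, 2 to 5 in liver, 0 to 6 in lung, 0 to 8 in skin, 3 to 9 in tail and 16 to 25 by the F test. The sign turned in kidney for Cxcl3 (quantile normalization -1.46, normexp -0.46, value table -0.29), Ccl28 (quantile normalization -0.94, normexp -0.26), Ccl20 (normexp -0.13) and Ccl22 (high background as a term, -0.06), and in skin for Ppbp (normexp -0.37). The cause was not tested. Deviations of same-numbered replicates from their organ means had a median correlation of -0.043 over 46 pairs, 13 of them over 0.1. The correlations ran from -0.851 to 0.782, too wide a range for this check to decide whether the numbers pair the samples. With a replicate block the members called were 9 in gonad, 8 in heart, 16 in kidney, 4 in liver, 1 in lung, 5 in skin, 6 in tail and 16 by the F test. Setting saturated spots to missing was not run, since no spot was saturated.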

Other observations

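Lung replicate 2 could be read only from the series value table, whose raw signals compress low values. On that table, scaled in the same way, it had Cxcl13 at -1.70, against -2.89 in lung 1 and -2.49 in lung 3. Its Cxcl13 signal was above that of every array of the other organs, which reached -2.63. Its Ccl6 was at -2.94, against 0.82 in lung 1 and -1.11 in lung 3. Its Cxcl10 was at -0.19, against -1.45 and -1.15 in the other lung samples, and its Ccl4 at -2.32, against -3.47 and -3.48. For the CCR2 ligand Ccl2 it was at 3.81, against 4.68 and 3.82, and for Cxcl12 at 6.44, against 6.77 and 6.53.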
